A study of Drosophila melanogaster with 6 samples.

Results

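The Cpr genes of Drosophila melanogaster encode cuticular proteins of the Rebers and Riddiford family, the largest family of structural proteins in the insect exoskeleton. They were taken here by name, as every gene whose symbol is Cpr followed by a map position, which gave 70 of the 17908 genes in the deposited table. The proteins are secreted by the epidermis and by other ectodermal linings such as trachea, foregut and hindgut, and their shared consensus region binds the chitin fibres of the cuticle. Each larval and pupal cuticle is built from its own mix of such proteins, and pulses of the moulting hormone ecdysone time when each gene is transcribed. For most single Cpr genes no individual function is stated here beyond membership of the family. Of the 70 genes, 35 lie on 3L, 21 on 2R, 5 each on 2L and 3R, and 4 on X. Most are small, with 2 or 3 exons in 53 of 70 and a median coding length of 179.5 codons (range 93 to 1231), by the Ensembl annotation of Release 6, whose gene starts and ends equal the deposited ones for all 70.

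Polyadenylated RNA of whole larvae was sequenced in 6 libraries, 2 for each of 3 genotypes. Rescue larvae are labelled fiomut ,[U6+]/fiomut ;U6mut/U6+, mutant larvae fiomut/fiomut ;U6mut/U6+, and control larvae, which the descriptions abbreviate wt, fiomut/cyo. All larvae therefore carried at least 1 fiomut allele, the rescue and mutant larvae also shared U6mut over U6+, and the control differed from both others by its cyo chromosome, the CyO balancer of chromosome 2. The labels do not say what kind of mutation fiomut is or what [U6+] consists of, and they give no larval stage, sex or number of animals. The series title names METTL16, an m6A methyltransferase, and the stated question is which genes it affects. Mutant against control asks what changed in fiomut homozygotes, rescue against mutant what changed with [U6+], and rescue against control what remained different.

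Total counts were 15983161 and 16511758 in the rescue libraries, 16380923 and 16153833 in the mutant libraries and 16234339 and 17847161 in the control libraries. METTL16 (listed as CG7544 in the deposited table, by RefSeq's symbols) had 22 and 46 counts in rescue, 52 and 25 in mutant and 41 and 35 in control, so its RNA level did not check the genotype labels. The larval serum and fat body genes Lsp1alpha, Lsp1beta, Lsp1gamma, Lsp2, Fbp1 and Fbp2 summed to 55010 and 78340 CPM (counts per 1000000, scaled by TMM, the trimmed-mean library factors) in rescue, 64800 and 70800 in mutant and 92510 and 93540 in control. Most of this sum came from the Lsp1 genes, none of which was called, although in rescue Fbp1 also made up a large part. Of the 6 genes, 2 fell in mutant against control and rose in rescue against mutant. Fbp1 had 17064 and 21050 CPM in rescue, 501 and 398 CPM in mutant and 2271 and 13225 CPM in control (log2 -4.11, adjusted p = 0.0155, mutant against control), and Lsp2 fell by 2.13 on the log2 scale (adjusted p = 0.00803). Of 8 adult markers, 6 had under 1 CPM in every library. The exceptions were the yolk protein genes Yp2 and Yp3, while the yolk protein gene Yp1 was among the 6. Yp2 had 2.05 and 0.928 CPM in rescue, 14.0 and 7.52 CPM in mutant and 0.376 and 1.64 CPM in control. It was called higher in mutant than in control (adjusted p = 0.0189). Yp3 had 36.0 and 10.7 CPM in rescue, 8.95 and 5.08 CPM in mutant and 25.0 and 43.0 CPM in control, and was called lower in mutant (adjusted p = 0.0407). Whether libraries of 1 genotype came from different pools of larvae is not stated, so p-values measure the spread between these libraries, which may be technical.

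Here and below, the family means the 70 genes named Cpr, and cuticle genes with other names, such as Lcp, were counted apart. This split is by name alone. Protein sequences were not compared, so genes with other names may also encode Rebers and Riddiford proteins. Most of the family's RNA came from few genes. On the deposited FPKM scale, which is per gene length, the 12 Cpr genes with the highest mean over the 6 libraries held 88.4 and 89.2% of the family's summed FPKM in rescue, 84.1 and 83.5% in mutant, and 87.9 and 88.6% in control. The sum over all 70 genes was 5873 and 4666 FPKM in rescue, 2524 and 2079 in mutant, and 13147 and 7592 in control. Both mutant libraries lay below all others and both control libraries above all others on this scale. In CPM the sums were 5439 and 5215 in rescue, 1954 and 1604 in mutant, and 8392 and 5394 in control, so that control 2 lay just below rescue 1 and the mutant libraries were again lowest. With 2 libraries against 2, an exact permutation test cannot give a two-sided p below 0.333, so the order of the sums was not tested. In whole larvae, fewer epidermal cells and less RNA per cell cannot be told apart.

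The most abundant family member differed between the genotypes. Cpr47Eg (2R, 11277957 to 11278445) had 815 and 20.9 FPKM in rescue, 325 and 245 FPKM in mutant, and 3875 and 1507 FPKM in control, where it led the family. Cpr78E (3L, 21666452 to 21666980) led in both rescue libraries at 1519 and 1574 FPKM, against 162 and 201 FPKM in mutant and 357 and 859 FPKM in control. Cpr49Ac (2R, 12386666 to 12390057) came next in rescue at 1160.3 and 1332 FPKM, against 42.7 and 80.9 FPKM in mutant and 169 and 397 FPKM in control. No gene stood out in mutant. Cpr49Af (366 and 228 FPKM), Cpr47Eg and Cpr60D (279 and 250.2 FPKM) were the highest there, and their library values overlapped. Cpr67B, seventh by mean level, had 407 and 668 FPKM in rescue, 252 and 122 FPKM in mutant, and 550.3 and 267 FPKM in control. It was not called in any comparison, although both mutant libraries lay below all others. By edgeR, log2 fold changes were 1.54 in rescue against mutant (adjusted p = 0.071) and -1.10 in mutant against control (adjusted p = 0.155). The 3 highest genes of each library made up 59.5 and 76.6% of the family's FPKM in rescue, 38.5 and 34.8% in mutant, and 50.4 and 42.2% in control. They were ranked within each library, so they were not the same 3 genes throughout.

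**Figure D1:**
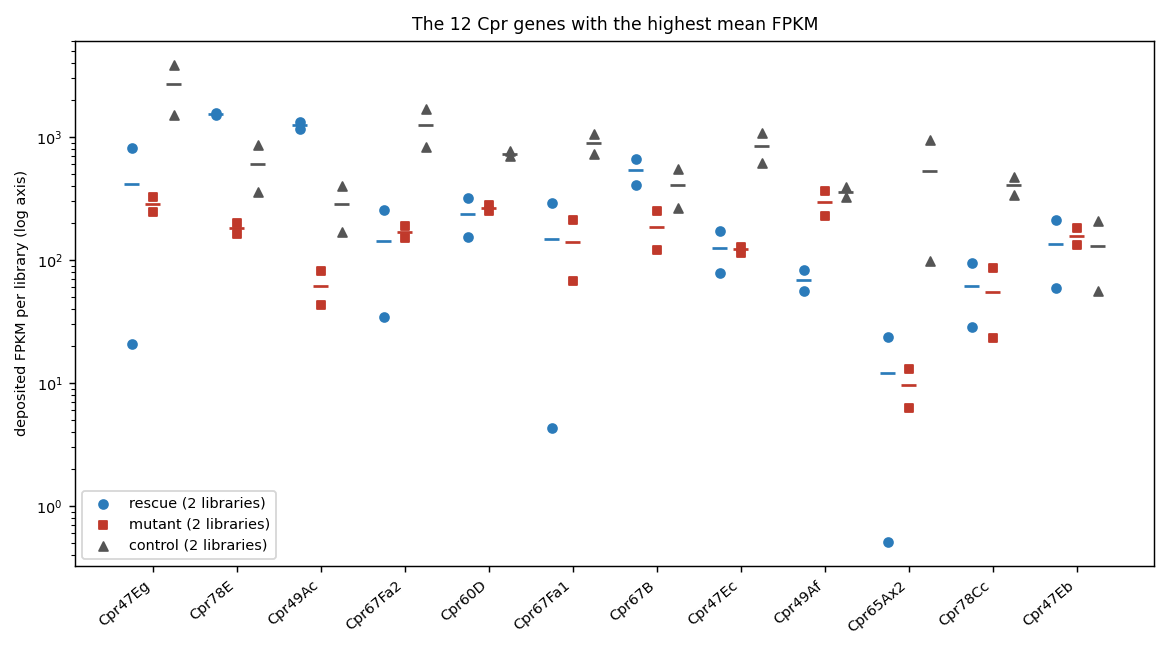
Deposited FPKM (log axis) of the 12 Cpr genes with the highest mean over the 6 libraries, ordered by that mean. Points are libraries of rescue, mutant and control larvae, 2 each, and short lines are group means. Cpr78E and Cpr49Ac are highest in rescue, while Cpr47Eg, both Cpr67Fa genes, Cpr60D, Cpr47Ec and Cpr78Cc are highest in control.

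At the other end, 26 of the 70 genes had too few counts to be tested, with at most 30 counts over the 6 libraries. Of these, Cpr57A, Cpr67Fb, Cpr72Eb and Cpr76Ba had 0 counts in all libraries, and a count of 0 allows up to 3 counts, or 0.164 to 0.225 CPM in a library (counting error only). Tested genes had at least 48 counts in all, and 62.9% of the Cpr genes were tested, against 66.3% of all genes. Single libraries held most counts of some untested genes. Cpr65Ea, for instance, had 0 and 0 counts in rescue, 0 and 0 in mutant, and 20 and 6 in control, while Cpr23B had 1 and 11 counts in rescue and 0 in each mutant and control library. Coding length was shorter among the 12 leading genes, with a median of 132.5 codons, than among the other 32 tested genes (185.0) and the 26 untested genes (191.0), as a description with no test. Of the 6 genes with a single exon, 5 were untested and the sixth was Cpr47Eb.

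The 2 libraries of a group differed more over the Cpr genes than over all genes tested. The median absolute log2 CPM difference between libraries was 0.56 in rescue, 0.52 in mutant and 0.71 in control over the 44 tested Cpr genes, against 0.22, 0.32 and 0.35 over all tested genes. In rescue, 5 genes differed more than 4-fold, all higher in rescue 1. These were Cpr47Eg (350.0 and 9.01 CPM), Cpr67Fa1 (164 and 2.46), Cpr67Fa2 (146 and 19.9), Cpr65Ax2 (17.6 and 0.382) and Cpr65Ax1 (3.30 and 0.0546). The same 5 genes were also higher in control 1 than in control 2, by less than 4-fold except for Cpr65Ax2. In control, Cpr65Ax2 had 682 and 73.5 CPM, and Cpr12A (5.86 and 24 CPM) was more than 4-fold higher in control 2. Cpr49Ab (0 and 0.411 CPM) also passed 4-fold in control 2, on 0 and 7 counts with a prior count of 2. As a count of 0 allows up to 3 counts, the size of that difference is uncertain. In mutant, Cpr76Bc (0 and 1.49 CPM) and Cpr65Au (15.4 and 2.45 CPM) differed that much. Where a call on one of the 5 genes changed without a rescue library, that is stated beside its value.

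**Figure D2:**
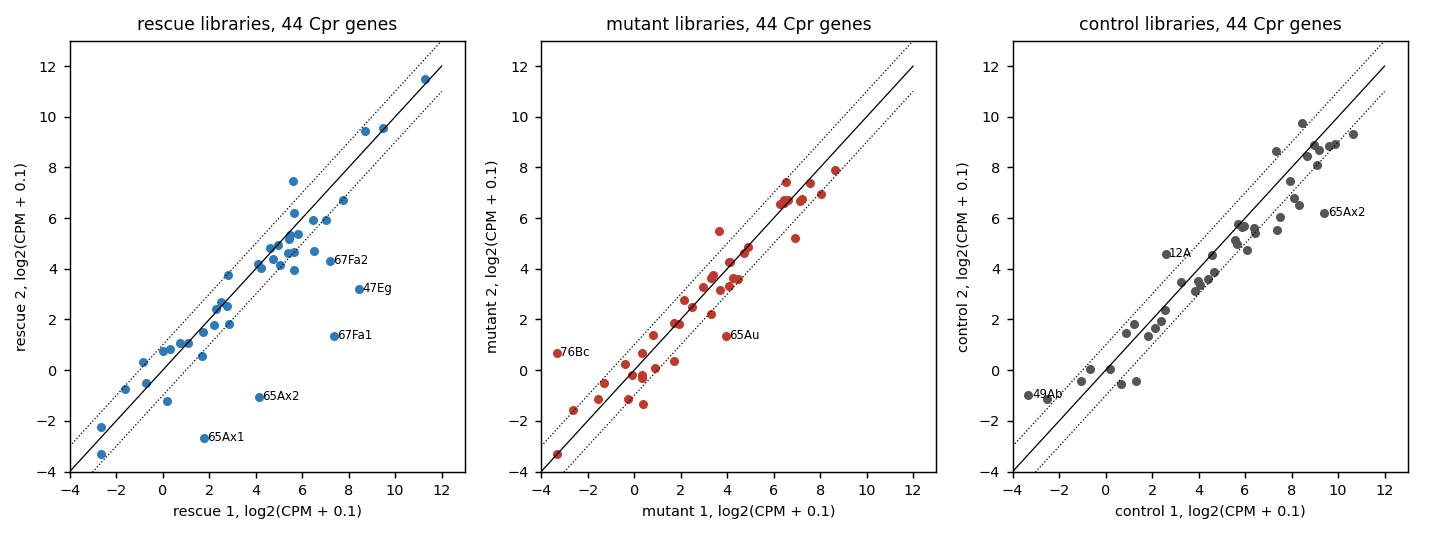
Log2(CPM + 0.1) of the 44 tested Cpr genes in library 2 against library 1 of rescue, mutant and control larvae. The solid line marks equal levels and the dotted lines a 2-fold difference, and genes more than 4-fold apart carry their map position. In rescue 5 genes fall far below the line.

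Many Cpr genes were lower in mutant than in control larvae, and the decreases ran from abundant to rare members. Differences were tested with the quasi-likelihood test of edgeR over all 11866 tested genes, and a gene was called at a Benjamini-Hochberg adjusted p under 0.05. Of the 44 tested members, 22 fell and 0 rose in mutant. Over all tested genes, 17% were called in this comparison, 9.94% higher and 7.04% lower. In the higher direction 1 member reached an unadjusted p under 0.05 and 0 were called by DESeq2, which called 27 lower. The log2 fold change of the 44 members had a median of -1.72 (-1.65 with Cpr49Ab, at 0 counts in mutant, at its bound), against -0.02 over all tested genes. A gene counted in 1 genotype alone passes the filter on low counts, so this median describes the tested members only. In 36 members both mutant libraries lay below both control libraries, and in 1, Cpr64Ad, above (all tested genes 30.2 and 30.7%). Without mutant 1, mutant 2, control 1 or control 2 there were 4, 6, 18 and 18 calls, all lower. The calls on Cpr11B, Cpr51A and Cpr97Ea held under all 11 alternatives.

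By fold change, the largest called decreases were in Cpr65Ax1 and Cpr62Bc. Cpr65Ax1 (3L, 6147531 to 6147987) had 1.15 and 0.776 CPM in mutant, against 68.5 and 26.9 CPM in control (log2 -5.62, SE 1.15, adjusted p = 0.0197). Its neighbour and named copy Cpr65Ax2 had 9.74 and 4.6 CPM in mutant and 682 and 73.5 CPM in control (log2 -5.72, SE 1.65, adjusted p = 0.055), which missed the threshold and passed it when the rescue group was left out (adjusted p = 0.00792). How reads that fit both copies were assigned is not given in the sources used here, so single copies are uncertain. Summed, the pair had 10.9 and 5.37 CPM in mutant, against 750.5 and 100.4 CPM in control. Cpr62Bc (3L, 1840281 to 1842084) had 9.74 and 12.3 CPM in mutant, against 322 and 92.5 CPM in control (log2 -4.23, SE 0.63, adjusted p = 0.00625). In all these genes the 2 groups did not overlap, and in each control 1 was well above control 2.

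Other called decreases were seen in genes of high and of low level. Cpr92F (3R, 20669571 to 20672821) had 10.5 and 13.3 CPM in mutant, against 182 and 66.5 CPM in control (log2 -3.38, SE 0.49, adjusted p = 0.00579). Cpr65Ec (3L, 7093204 to 7093841) had 0.302 and 0.597 CPM in mutant, against 5.11 and 3.76 CPM in control (log2 -3.27, SE 0.47, adjusted p = 0.00539). Cpr97Ea (3R, 27083130 to 27087778) had 1.63 and 2.51 CPM in mutant, against 25.6 and 14.5 CPM in control (log2 -3.27, SE 0.39, adjusted p = 0.00269). None of these groups overlapped, and Cpr97Ea had the lowest adjusted p of the family in this comparison. Cpr78Cc had 12.5 and 45.0 CPM in mutant, against 241 and 178 CPM in control (log2 -2.87, SE 0.72, adjusted p = 0.0359). Cpr47Ec had 87.1 and 95.7 CPM in mutant, against 788 and 462 CPM in control (log2 -2.77, SE 0.44, adjusted p = 0.00771). Cpr49Ac had 92.1 and 171 CPM in mutant, against 351 and 852 CPM in control (log2 -2.19, SE 0.48, adjusted p = 0.0242). The Cpr78Cc call was lost without any one of the 4 libraries and with the replicate block, and the Cpr49Ac call without mutant 1, mutant 2 or control 2. The calls on Cpr65Ax1, Cpr62Bc, Cpr92F and Cpr47Ec were lost without mutant 1 or mutant 2, and that on Cpr65Ec without mutant 1. Of these 8 genes, Cpr97Ea alone kept its call under all 11 alternatives.

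Smaller called decreases were found in Cpr51A (-1.89), Cpr100A (-1.82), Cpr65Aw (-1.81), Cpr78E (-1.74), Cpr97Eb (-1.74), Cpr66D (-1.70), Cpr78Ca (-1.59), Cpr11B (-1.53), Cpr49Ah (-1.46), Cpr60D (-1.45), Cpr64Aa (-1.43), Cpr49Ag (-1.39), Cpr65Av (-0.96) and Cpr56F (-0.88), as log2 fold changes. Cpr11B had the tightest values of these, at 17.4 and 19.4 CPM in mutant and 52.3 and 53.8 CPM in control. The calls on Cpr56F, Cpr64Aa and Cpr66D were each lost under 7 of the 11 alternatives, the fit without the rescue group among them. The Cpr60D call was lost without any one of the 4 libraries, and that on Cpr78E without mutant 1, mutant 2 or control 2. Those on Cpr49Ag and Cpr65Av were lost without mutant 1, mutant 2 or control 1. Without mutant 1 or mutant 2, those on Cpr100A, Cpr65Aw and Cpr97Eb were lost. The Cpr78Ca call was lost without mutant 2 or control 1, and that on Cpr49Ah without mutant 1. Several abundant genes lay below control in both mutant libraries and yet missed the threshold. Cpr47Eg had 139 and 103 CPM in mutant, against 1599 and 643 CPM in control (log2 -3.21, SE 1.33, adjusted p = 0.139). Cpr67Fa2 had 87.2 and 106 CPM in mutant, against 927 and 479 CPM in control (log2 -2.87, SE 0.83, adjusted p = 0.0556). Cpr67Fa1, the named copy of Cpr67Fa2, had 119 and 37.1 CPM in mutant and 578 and 412 CPM in control (log2 -2.66, SE 1.43, adjusted p = 0.234). For these 3 genes the spread was estimated over all 3 groups, and all differed more than 4-fold between the rescue libraries. With the rescue group left out they were called lower in mutant, at adjusted p = 0.00377 for Cpr47Eg, 0.00262 for Cpr67Fa2 and 0.0136 for Cpr67Fa1. These genes also passed the threshold with only rescue 1 or only rescue 2 left out. In either fit the log2 fold change was -3.21 for Cpr47Eg, -2.87 for Cpr67Fa2 and -2.66 for Cpr67Fa1. A lone rescue library adds nothing to the spread between libraries, so those fits largely repeat the one without the rescue group. Together the Cpr67Fa pair had 207 and 143 CPM in mutant and 1505 and 891 CPM in control.

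A few members showed little difference or lay higher in mutant, none past the threshold. Cpr49Af had 394 and 240.3 CPM in mutant and 403 and 346 CPM in control (log2 -0.24, SE 0.31, adjusted p = 0.623), and Cpr47Eb had 150.4 and 108 CPM in mutant and 165 and 46.6 CPM in control (log2 0.29, SE 0.70, adjusted p = 0.797). Both genes overlapped between the groups. Cpr64Ad had 1.15 and 0.717 CPM in mutant, against 0.0752 and 0.352 CPM in control (log2 2.01, SE 0.79, adjusted p = 0.121). Cpr65Ay (0.36), Cpr50Cb (0.53) and Cpr73D (0.40) also had positive log2 fold changes short of the threshold, and exons of Cpr73D overlap the gene Ogdh, so its counts are uncertain.

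**Figure D3:**
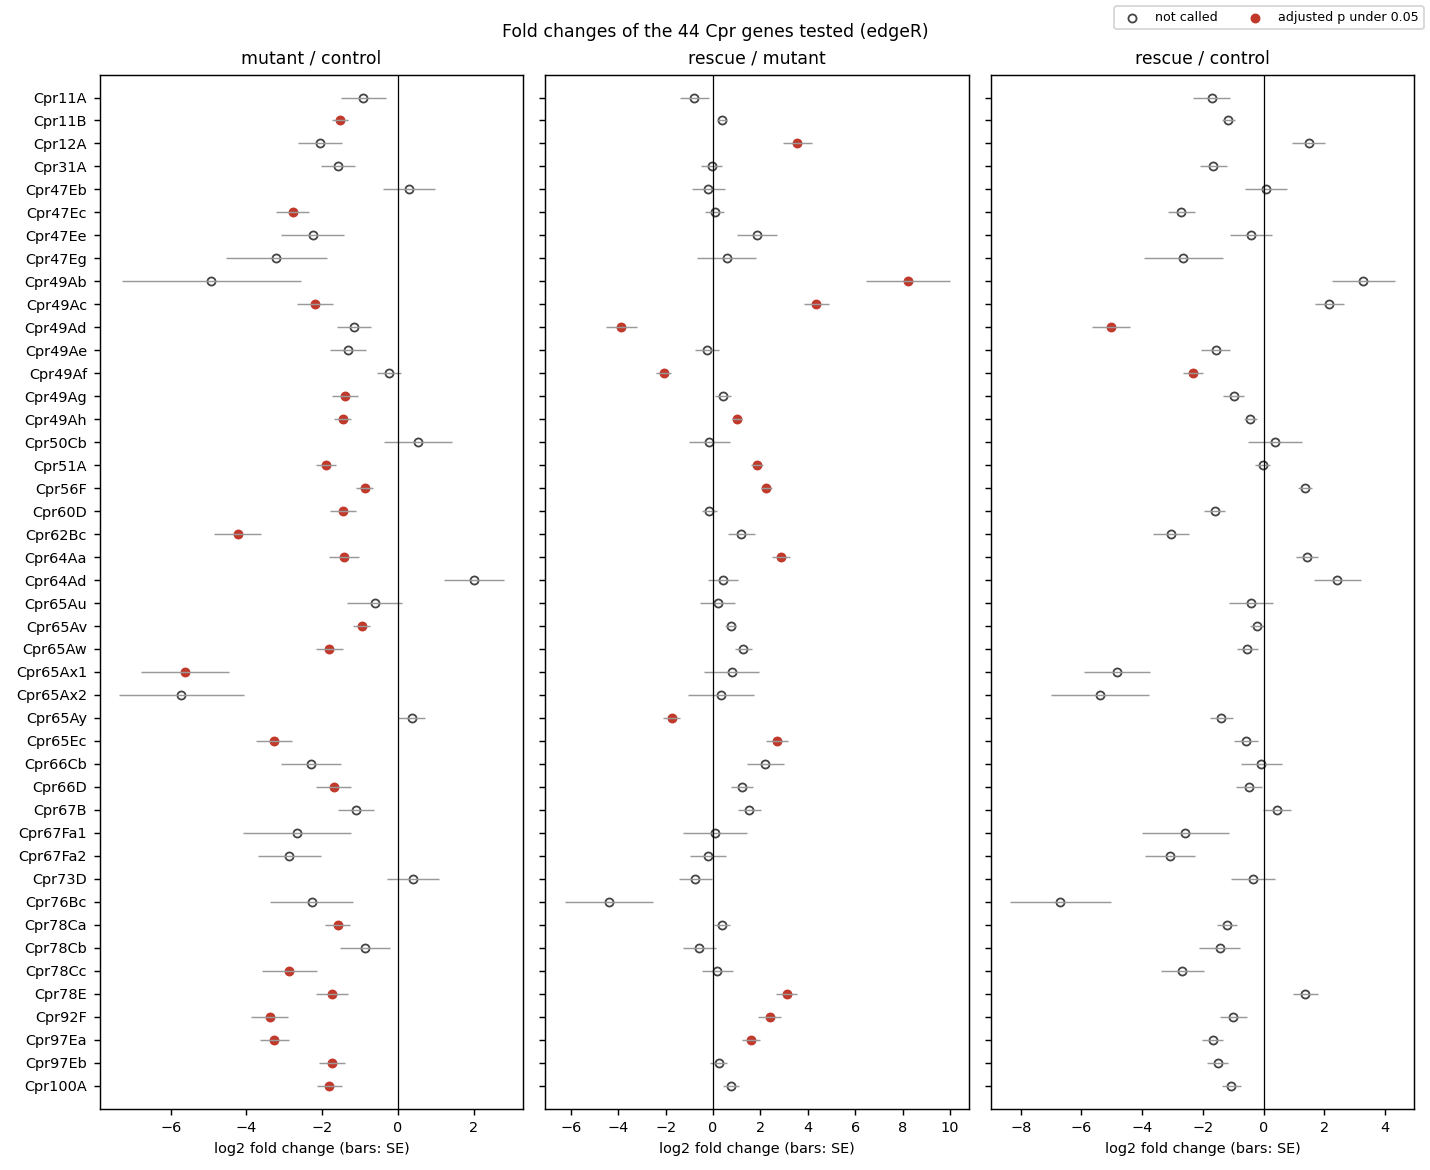
Log2 fold changes with SE (edgeR) of the 44 tested Cpr genes, in order along the chromosome arms, for mutant over control, rescue over mutant and rescue over control. Filled points passed an adjusted p of 0.05. All 22 filled points in the first panel are negative; 11 of 14 in the second are positive and both in the third are negative. The Cpr49Ab values against mutant rest on 0 mutant counts.

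Control larvae carried a balancer on chromosome 2, so the members were also counted by chromosome. Of 16 tested members on chromosome 2, 7 fell in mutant, with a median log2 fold change of -1.45. Of all tested genes there, 6.02% were called lower and 16.9% in either direction. Of 25 members on chromosome 3, 14 fell, with a median of -1.81, against 8.43% of all genes called lower and 18.7% in either direction. Of 3 members on X, Cpr11B fell, against 5.76% of all genes called lower and 13.1% in either direction. The chromosomes were not tested against each other, and the balancer, the fiomut genotype and U6mut/U6+, which control larvae did not carry, cannot be told apart on any chromosome.

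By position, 45 members lie in 10 tandem clusters, defined as 3 or more members with gaps under 50 kb, and 25 are single or paired genes. Detection was uneven among the clusters. At 49A (2R, 12376626 to 12415170) 7 of 8 members were tested, at 65A (3L, 6131242 to 6161589) 6 of 7, and at 78C 3 of 3, but at 76B 1 of 4, at 65E and 62B 1 of 3 each, and at 72E 0 of 3. In mutant against control, the called decreases were 3 of 7 tested at 49A, 3 of 6 at 65A, 2 of 3 at 78C, 1 of 4 at 47E, 1 of 2 at 64A, 1 of 1 at 62B and 65E, and 10 of 17 among single or paired genes. Over all tested genes 7.04% were called lower in that comparison. At 67F edgeR called 0 of 2 tested, with 1 lower at an unadjusted p under 0.05 and 1 by DESeq2, and at 76B it called 0 of 1, with 0 by both other counts. Summed FPKM of the 47E cluster (2R, 11251751 to 11278445) was 1048 and 311 in rescue, 621 and 507 in mutant, and 5164 and 2176 in control. At 49A the sum was 1330 and 1446 in rescue, 460.3 and 359 in mutant, and 725 and 825 in control. The 49A sum in rescue was mostly Cpr49Ac. Without that gene, left out after the values were seen, the 49A sum was 169.6 and 113.4 FPKM in rescue, 417.5 and 278.5 FPKM in mutant, and 555.7 and 428.5 FPKM in control. As in 47E, rescue then lay below control, and 5 of 7 tested 49A members had negative log2 fold changes in rescue against control, 2 of them called. The 65A cluster is shared with the Lcp65A larval cuticle genes and Acp65Aa, and the 78C cluster surrounds the pupal cuticle gene Edg78E.

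**Figure D4:**
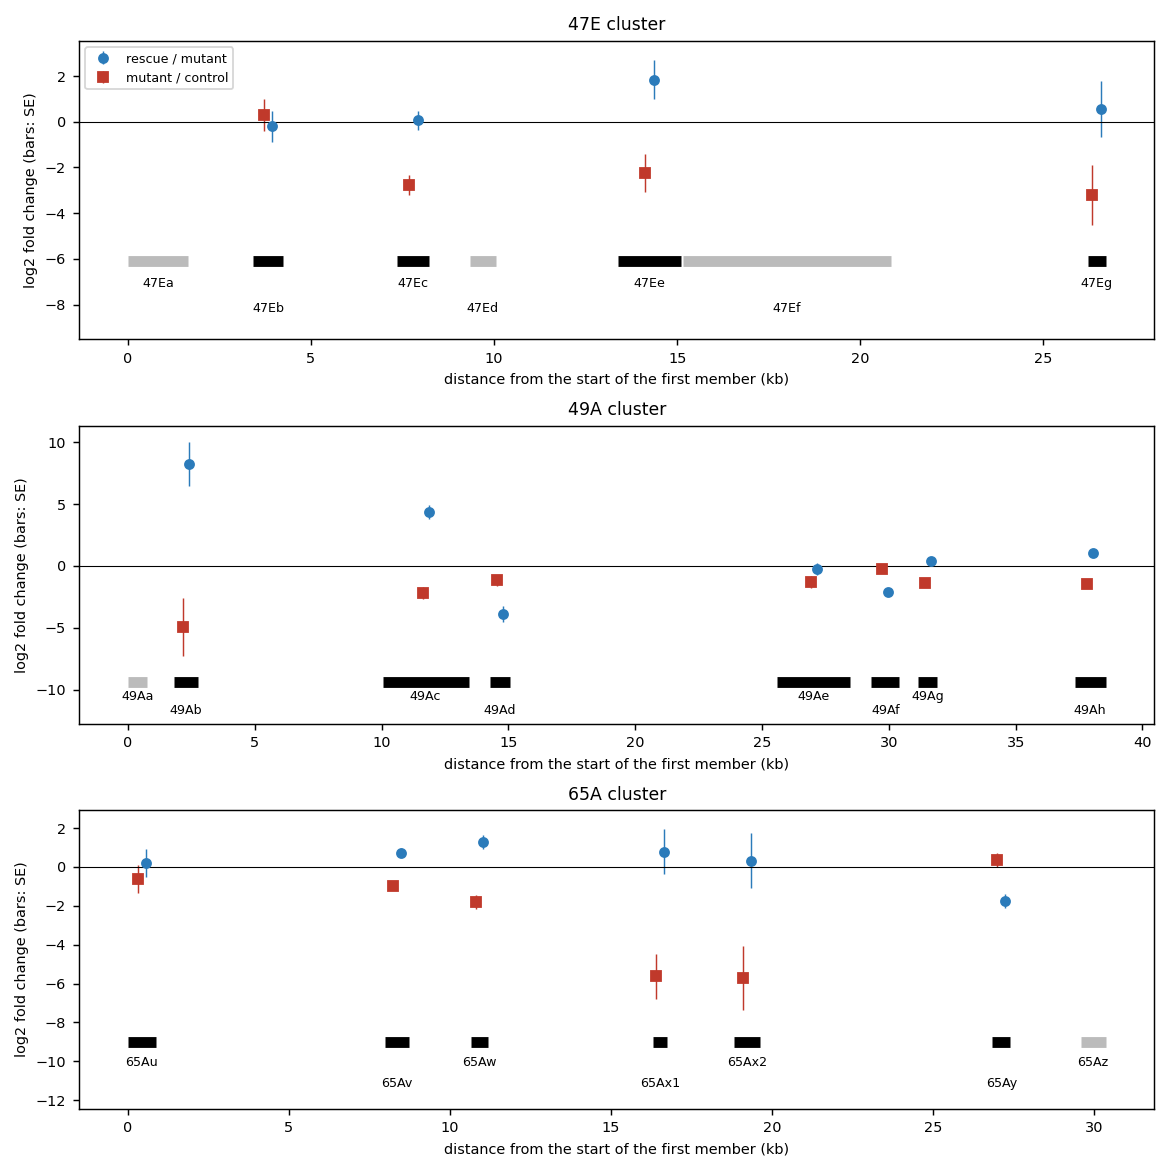
Log2 fold changes with SE (edgeR) of the Cpr genes of the 47E, 49A and 65A clusters, for rescue over mutant (circles) and mutant over control (squares), against distance in kb from the start of the first member. Bars at the bottom mark the genes, grey where not tested. Cpr49Ac and Cpr49Ad, next to each other, differ in sign in rescue over mutant.

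In rescue larvae, part of the family was higher than in mutant larvae and 3 genes were lower. Of the 44 tested members, 11 rose and 3 fell, against 16.1% of all tested genes called, 7.61% higher and 8.47% lower. The median log2 fold change of the members was 0.41, against 0.00 over all tested genes, and 31 of 44 were positive. In 21 members both rescue libraries lay above both mutant libraries, and in 4 below (all tested genes 33.8 and 33.1%). Without rescue 1, rescue 2, mutant 1 or mutant 2 there were 12, 9, 2 and 7 calls. This comparison uses the same mutant libraries as the one above, so values of the 2 comparisons are not independent. The calls on Cpr51A and Cpr56F held under all 11 alternatives.

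The largest increases in level were in Cpr49Ac and Cpr78E. Cpr49Ac had 2505 and 2881 CPM in rescue, against 92.1 and 171 CPM in mutant (log2 4.35, SE 0.53, adjusted p = 0.00376). Cpr78E had 717 and 744 CPM in rescue, against 76.2 and 93.0 CPM in mutant (log2 3.11, SE 0.44, adjusted p = 0.00585). The rescue libraries were close to each other for both genes and far above the mutant libraries. Cpr12A (X, 13543643 to 13544907) had 44.2 and 39.8 CPM in rescue, against 3.69 and 3.46 CPM in mutant (log2 3.55, SE 0.60, adjusted p = 0.0115). Cpr56F (2R, 20288371 to 20291945) had 24.5 and 28.0 CPM in rescue, against 5.56 and 5.55 CPM in mutant (log2 2.24, SE 0.23, adjusted p = 0.00223). Cpr64Aa had 5.64 and 6.28 CPM in rescue, against 0.847 and 0.776 CPM in mutant (log2 2.87, SE 0.39, adjusted p = 0.00537). In each of these 5 genes the rescue libraries also lay above both control libraries. The calls on Cpr78E and Cpr12A were lost without mutant 1 or mutant 2, and those on Cpr49Ac and Cpr64Aa without mutant 1. Cpr49Ab, with 55 and 25 counts in rescue and 0 and 0 in mutant, was at least 24.7-fold higher in rescue (adjusted p = 0.0291), with the floor of 3 counts taken over the group, and its call was lost without rescue 1, mutant 1 or mutant 2.

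For the other called increases, the rescue libraries overlapped control or lay below it. Cpr65Ec had 3.19 and 2.73 CPM in rescue, against 0.302 and 0.597 CPM in mutant (log2 2.70, SE 0.47, adjusted p = 0.0121). Cpr92F had 50.3 and 73.8 CPM in rescue, against 10.5 and 13.3 CPM in mutant (log2 2.38, SE 0.47, adjusted p = 0.0186). Cpr51A had 43.2 and 36.5 CPM in rescue, against 13 and 8.96 CPM in mutant (log2 1.86, SE 0.27, adjusted p = 0.0062). Cpr51A overlapped control, which had 46.7 and 35.1 CPM. Cpr97Ea (1.58) and Cpr49Ah (1.01) rose by less on the log2 scale, and both rescue libraries stayed below both control libraries for these genes. The calls on Cpr97Ea and Cpr49Ah were lost without any one of the 4 libraries, that on Cpr92F without rescue 2, mutant 1 or mutant 2, and that on Cpr65Ec without mutant 1.

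Several genes with large differences between mutant and control did not differ between rescue and mutant beyond their spread. Cpr47Ec had 131 and 60.1 CPM in rescue and 87.1 and 95.7 CPM in mutant (log2 0.07, SE 0.41, adjusted p = 0.926). Cpr60D had 215 and 106 CPM in rescue and 189.8 and 167 CPM in mutant (log2 -0.15, SE 0.34, adjusted p = 0.781). Cpr78Cc had 50.1 and 15.3 CPM in rescue and 12.5 and 45.0 CPM in mutant (log2 0.18, SE 0.67, adjusted p = 0.872). In these the groups overlapped. For Cpr47Eg, Cpr67Fa1, Cpr67Fa2, Cpr65Ax1 and Cpr65Ax2 both mutant libraries lay between rescue 1 and rescue 2, so the sign rests on which rescue library is read. Without rescue 1, Cpr47Eg and Cpr67Fa1 were called lower in rescue (log2 -3.75 and -4.99, adjusted p = 0.0144 and 0.0113).

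A further 3 genes were lower in rescue. Cpr49Af (2R, 12405932 to 12407045) had 89.2 and 60.1 CPM in rescue, against 394 and 240.3 CPM in mutant (log2 -2.09, SE 0.33, adjusted p = 0.00883). Cpr49Ad (2R, 12390896 to 12391699) had 1 and 2 counts in rescue, against 19 and 25 in mutant, so that mutant exceeded rescue 15.8-fold (95% interval from counting error alone 5.07 to 79.6, adjusted p = 0.0111). Cpr65Ay had 4.73 and 5.29 CPM in rescue, against 21.8 and 12.1 CPM in mutant (log2 -1.76, SE 0.37, adjusted p = 0.0233). None of these groups overlapped. Cpr49Ad and Cpr49Ac lie on opposite strands with their downstream ends 838 bases apart, and these neighbours were called in opposite directions. The Cpr49Ad call was lost without any one of the 4 libraries, the Cpr65Ay call without rescue 1, rescue 2 or mutant 1, and the Cpr49Af call without rescue 2 or mutant 1.

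**Figure D5:**
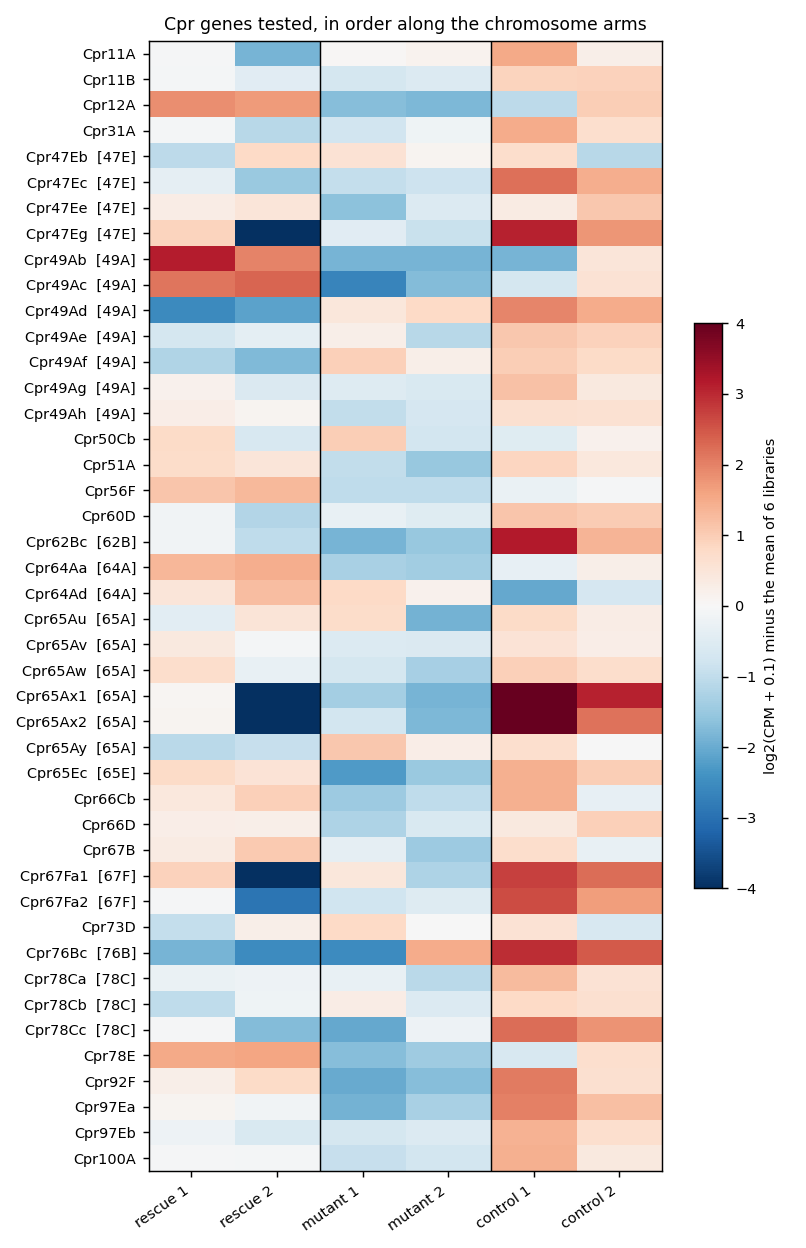
Log2(CPM + 0.1) minus the mean of the 6 libraries for the 44 tested Cpr genes, in order along the chromosome arms with cluster names in brackets. Columns are the rescue, mutant and control libraries, and colours end at 4 in either direction. Rescue 2 is at the low end for Cpr47Eg, both Cpr65Ax genes and Cpr67Fa1, and both rescue libraries are high for Cpr12A, Cpr49Ab, Cpr49Ac and Cpr78E.

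Between rescue and control larvae few members passed the test, and the values went both ways. Of the 44 tested members, 0 rose and 2 fell, against 0.64% of all tested genes called, 0.354% higher and 0.287% lower. At an unadjusted p under 0.05, 7 members were higher and 20 lower, and DESeq2 called 4 higher and 18 lower. The genes called were Cpr49Af, with 89.2 and 60.1 CPM in rescue and 403 and 346 CPM in control (log2 -2.33, SE 0.33, adjusted p = 0.0381), and Cpr49Ad, with 3 counts in rescue and 88 in control. For Cpr49Ad control exceeded rescue 34.7-fold (95% interval from counting error alone 11.5 to 171, adjusted p = 0.0291). Both calls were lost without rescue 2 or control 1, among other settings. The median log2 fold change of the members was -1.03, against 0.07 over all tested genes. In 26 members both rescue libraries lay below both control libraries, and in 7 above (all tested genes 23.5 and 30.7%).

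The 7 genes above control were Cpr12A, Cpr49Ab, Cpr49Ac, Cpr56F, Cpr64Aa, Cpr64Ad and Cpr78E. Their log2 fold changes were 1.48, 3.29, 2.16, 1.36, 1.44, 2.43 and 1.37, with adjusted p = 0.0533 to 0.21, so none passed. Among the genes below control, Cpr65Ax2 (-5.39, adjusted p = 0.141), Cpr65Ax1 (-4.83, 0.0799), Cpr67Fa2 (-3.08, 0.115), Cpr62Bc (-3.04, 0.0641), Cpr47Ec (-2.71, 0.0514) and Cpr60D (-1.60, 0.0738) missed the threshold as well. Cpr76Bc had 1 and 0 counts in rescue, against 57 and 52 in control, so that control exceeded rescue 129-fold (95% interval from counting error alone 22.6 to 5140, adjusted p = 0.0952). Without control 2 there were 16 calls, 4 higher and 12 lower, and without control 1 or rescue 2 there were 0. These counts depend on which control and rescue libraries enter.

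Other structural cuticle genes (Lcp, Ccp84A, Twdl and further genes, 55 in the table and 35 tested) were counted in the same way. They were set apart by name and are not a protein family distinct from the Cpr genes. In mutant against control 19 fell, with a median log2 fold change of -2.61, and edgeR called 0 higher, with 0 higher at an unadjusted p under 0.05 and 0 by DESeq2. Over all tested genes, 7.04% fell and 9.94% rose in mutant against control. The shares were 7.61% higher and 8.47% lower in rescue against mutant. They stand beside the gene lists below as well. In rescue against mutant 4 rose, with a median of 1.0, and edgeR called 0 lower, with 3 lower at an unadjusted p under 0.05 and 1 by DESeq2. In rescue against control edgeR called 0, with a median of -1.73, against 3 higher and 19 lower at an unadjusted p under 0.05 and 2 higher and 14 lower by DESeq2. The most abundant called genes in mutant against control were the larval cuticle genes Lcp4 (-1.15), Lcp3 (-2.61), Lcp1 (-2.22) and Lcp2 (-2.76). Pcp, a pupal cuticle gene, had 398 and 312 CPM in rescue, 101 and 40.6 CPM in mutant and 51.1 and 62.0 CPM in control. It rose in rescue against mutant (log2 2.32, adjusted p = 0.0143), and mutant and control overlapped.

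Among 31 tested genes of chitin synthesis, modification and breakdown, 8 fell in mutant against control (median -0.64) and edgeR called 0 higher, as did DESeq2, with 0 at an unadjusted p under 0.05. In rescue against mutant 5 rose and 1 fell (median -0.08). The moulting chitinase gene Cht10 had 197 and 220.2 CPM in rescue, 13.2 and 26.9 CPM in mutant and 146 and 200 CPM in control. Cht10 and Cht5, another chitinase gene, were lower in mutant than in control (log2 -3.11 and -1.90) and higher in rescue than in mutant (3.38 and 2.41). Gfat1 (-1.78), which feeds the hexosamine pathway, the deacetylase gene Cda4 (-1.27) and the chitin-binding gene obst-A (-1.57) fell in mutant against control and were not called in rescue against mutant. The chitin synthase gene kkv had 128 and 129 CPM in rescue, 93.9 and 142 CPM in mutant and 279 and 180.2 CPM in control (log2 -0.96, adjusted p = 0.0671, mutant against control). Of 11 tanning genes, 5 fell and 2 rose in mutant against control and 5 rose and 3 fell in rescue against mutant. The most abundant of them, ple, had 283 and 628 CPM in rescue, 7.38 and 7.70 CPM in mutant and 77.6 and 888 CPM in control. It was called lower in mutant than in control (log2 -6.00, adjusted p = 0.0155), and its control libraries lay far apart. Ddc, the dopa decarboxylase gene of cuticle tanning, had 543 and 509 CPM in rescue, 27.9 and 9.97 CPM in mutant and 80.0 and 88.1 CPM in control.

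Markers of moulting hormone activity and of other tissues differed between the groups as well. The 19 ecdysone-response and cuticle regulator genes summed to 2105 and 2033 CPM in rescue, 483 and 734 CPM in mutant and 1177 and 1633 CPM in control, with 7 lower in mutant than in control and 9 higher and 1 lower in rescue than in mutant. ImpE2, an ecdysone-inducible gene, had 203 and 197 CPM in rescue, 0.363 and 0.299 CPM in mutant and 2.48 and 127 CPM in control. Both control libraries lay between mutant and rescue, with control 2 far above control 1. The ecdysone-induced transcription factor gene br had 680.1 and 642 CPM in rescue, 74.1 and 139 CPM in mutant and 424 and 584 CPM in control. The 5 gut enzyme genes summed to 2749 and 2890 CPM in rescue, 19480 and 21060 CPM in mutant and 1592 and 1591 CPM in control, with all 5 higher in mutant than in control. The 6 glue genes of the salivary gland summed to 13160 and 12920 CPM in rescue, 23.3 and 434 CPM in mutant and 2574 and 7470 CPM in control, with Sgs1 at 0 counts in mutant 1. The 6 muscle genes summed to 13120 and 12500 CPM in rescue, 23910 and 22950 CPM in mutant and 51210 and 32310 CPM in control. The 5 tracheal genes summed to 652.6 and 621 CPM in rescue, 294 and 449 CPM in mutant and 824 and 590.2 CPM in control. Most of this sum was uif, pio and dpy. Of the 5 genes, 2 were called lower and 0 higher in mutant against control. However, btl lay higher in mutant, at 5.99 and 7.05 CPM, against 2.78 and 3.35 CPM in control (log2 1.08, adjusted p = 0.0558). The 6 imaginal disc genes summed to 169.7 and 169.4 CPM in rescue, 56.3 and 62.9 CPM in mutant and 93.5 and 160.6 CPM in control. Gut sums were highest in mutant, and glue and disc sums lowest there. The part of hormone activity, stage or tissue share in the Cpr results was not tested.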

How the data were processed

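The authors deposited raw read counts per gene, as integers, and a table of FPKM values that hold these counts divided by gene length and by a library denominator, per the file headers and values. That denominator was 0.980 to 1.02 times the TMM-scaled library size used here. A deposited table of group means was not used. The aligner, counter, strand setting and genome build: not given in the sources used here. Identifiers of 17669 genes matched the RefSeq Release 6 table, 99.5% with the same start.

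Counts were tested by quasi-likelihood in edgeR 4.0.16 (R 4.3.3), in 1 fit of all 6 libraries and 3 groups without a block, with TMM factors. Low genes were removed per group with filterByExpr (minimum count 10), which kept 11866. Adjusted p-values are Benjamini-Hochberg over all tested genes, called under 0.05. The common dispersion was 0.0722. SE was taken as the log2 fold change over the root of F. Libraries of a group differed beyond counting noise (chi-square over its degrees of freedom 56.9 in rescue, 61.9 in mutant and 109 in control). Intervals of count ratios are exact at 95%. The scripts were tested on simulated data.

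Members and lists were chosen with earlier results of these data known. Values are given for the 12 members of highest mean FPKM and, in each comparison and direction, the 8 called members of largest change. List genes are the called ones of highest mean CPM, and further genes were chosen after their values were seen. Alternatives were DESeq2 1.42.0, its size factors, no filter, 2-group fits, the replicate block and leaving out each library.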

Additional observations from a re-analysis of the deposited data

How the results depend on the processing

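The number of Cpr genes called between rescue and control moved with most settings. It was 2 as reported, 14 without a filter on low counts, 22 by DESeq2, 0 with only the 2 groups compared and 5 with the replicate block, and 0 to 16 when a library was left out. Over all genes in that comparison 76 calls became 478 without a filter, 1026 by DESeq2, 11 with only the 2 groups and 117 with the replicate block, and 50 to 778 when a library was left out. For mutant against control, leaving out a library gave 4 to 18 Cpr calls and 611 to 1930 calls over all genes, against 22 and 2015. For rescue against mutant it gave 2 to 12 and 400 to 936, against 14 and 1908. Fewer libraries leave fewer degrees of freedom, and a lone library was assumed to vary like the other groups. Other settings kept these 2 counts within 1.5 times.

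The median log2 fold change of the tested Cpr genes kept its sign under every alternative run. Without a filter it was -1.45 for mutant against control and -0.50 for rescue against control. When a library was left out it was -1.70 to -1.39 for mutant against control, 0.17 to 0.96 for rescue against mutant and -1.24 to -0.53 for rescue against control. The number of genes tested also changed in these fits.

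Of 890 values for 81 gene results, 694 kept direction and side of the threshold, 101 lost it, 72 gained it and 23 turned sign; none of the 23 had been called. Leaving out 1 library at a time, the log2 fold change ranged from -0.35 to 1.48 for Cpr47Eb, from -0.64 to 0.074 for Cpr49Af and from -0.12 to 0.76 for Cpr65Ay in mutant against control, and from -1.11 to 1.27 for Cpr47Eb in rescue against control. In rescue against mutant it ranged from -1.40 to 0.44 for Cpr47Eb, from -0.60 to 0.52 for Cpr47Ec, from -3.75 to 1.53 for Cpr47Eg, from -0.75 to 0.27 for Cpr60D, from -3.96 to 1.77 for Cpr65Ax1, from -4.20 to 1.30 for Cpr65Ax2, from -4.99 to 1.16 for Cpr67Fa1, from -2.28 to 0.60 for Cpr67Fa2 and from -0.91 to 1.39 for Cpr78Cc. In Cpr47Ec, Cpr47Eg, Cpr65Ax1, Cpr65Ax2, Cpr67Fa1, Cpr67Fa2, Cpr60D and Cpr78Cc the lowest value was that without rescue 1. With the replicate block the sign turned for Cpr47Ec (-0.059), Cpr47Eg (-0.58), Cpr65Ax2 (-0.88) and Cpr67Fa1 (-0.81). The cause was not tested. Cpr49Ab gave no value for mutant against control with only those 2 groups.

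No pairing of libraries by the replicate numbers of the labels was seen across genes. Deviations of same-numbered libraries correlated at 0.04, 0.02 and 0.06 for mutant and control, rescue and mutant, and rescue and control. A low correlation across genes cannot exclude that same-numbered libraries were handled together. With the replicate block, 19, 15 and 5 Cpr genes were called for mutant against control, rescue against mutant and rescue against control. Low counts left 26 members untested, and Cpr49Ab, Cpr49Ad and Cpr76Bc were tested on few or 0 counts in a group. The effect of depth was not tested.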
